A study of Mus musculus with 24 samples.

Results

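The lesioned hypothalamus was compared with the lesioned hippocampus of mice. The members were taken from the sample labels alone and are 6 of the 24 libraries of the series, namely 3 hypothalamic libraries (PEL_10d, replicates 1 to 3) and 3 hippocampal libraries (HIP-PEL_10d, replicates 1 to 3). Both groups came from lesioned (PEL) mice, whose pituitary stalk, the link between hypothalamus and gland, had been ablated with cathodic current, and both were collected at day 10 with no growth hormone in their labels. The animals were male C57BL/6J mice, and the dissected hypothalamus contained the supraoptic and paraventricular nuclei. Age, the extent of the hippocampal dissection, whether replicates were single animals or pools and whether the regions shared animals were not stated in the sources used here. The p-values therefore measure only the spread between these libraries. The same contrast in Sham-operated mice, labelled day 0, is given beside the lesioned one.

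The hypothalamus is a mosaic of small nuclei whose neurons are specified largely by homeobox transcription factors and release peptides such as vasopressin, oxytocin, orexin and melanin-concentrating hormone. The hippocampus is a sheet of glutamatergic pyramidal and granule cells of pallial origin, with strong synaptic plasticity and scattered GABAergic interneurons. A stalk lesion cuts the axons of hypothalamic neuroendocrine cells directly, whereas the hippocampus lies away from the lesion.

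Sequences upstream of 5 of the genes that separate the regions are shown first, because they are the magnocellular pair (Avp and Oxt), the most abundant of the hypothalamic peptide transcripts named here (Pmch) and a transporter and a transcription factor of pyramidal cells (Slc17a7 and Neurod6). Each run is the 250 bases before the annotated start, 5′ to 3′ along the gene's own strand, from RefSeq on build GRCm38.p6. Capitals mark matches to an E-box (CANNTG) or a nuclear receptor half-site (TGACC), searched on both strands. Avp (ENSMUSG00000037727) and Oxt (ENSMUSG00000027301) are neighbours on chromosome 2 on opposite strands.
Avp, chr2:130582589-130582838, minus strand: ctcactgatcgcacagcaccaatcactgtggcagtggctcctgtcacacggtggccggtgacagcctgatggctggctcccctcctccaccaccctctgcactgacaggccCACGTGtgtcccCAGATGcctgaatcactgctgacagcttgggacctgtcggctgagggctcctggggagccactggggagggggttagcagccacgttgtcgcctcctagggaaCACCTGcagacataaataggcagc
Oxt, chr2:130575919-130576168, plus strand: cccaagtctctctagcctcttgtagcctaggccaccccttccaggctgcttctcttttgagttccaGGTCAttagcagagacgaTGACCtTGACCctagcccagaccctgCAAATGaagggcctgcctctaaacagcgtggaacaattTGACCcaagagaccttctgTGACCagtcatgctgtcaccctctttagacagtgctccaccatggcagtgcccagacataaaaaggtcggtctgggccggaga
Pmch, chr10:88090822-88091071, plus strand: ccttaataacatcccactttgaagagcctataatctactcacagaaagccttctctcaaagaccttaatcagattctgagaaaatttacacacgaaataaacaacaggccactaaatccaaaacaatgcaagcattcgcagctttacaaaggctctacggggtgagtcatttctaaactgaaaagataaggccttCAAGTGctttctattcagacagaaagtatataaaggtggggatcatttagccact
Slc17a7, chr7:45163671-45163920, plus strand: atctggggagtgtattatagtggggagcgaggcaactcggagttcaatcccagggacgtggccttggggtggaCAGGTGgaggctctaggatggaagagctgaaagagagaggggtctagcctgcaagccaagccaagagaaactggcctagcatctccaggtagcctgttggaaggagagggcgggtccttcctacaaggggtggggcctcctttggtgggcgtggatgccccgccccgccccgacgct
Neurod6, chr6:55681264-55681513, minus strand: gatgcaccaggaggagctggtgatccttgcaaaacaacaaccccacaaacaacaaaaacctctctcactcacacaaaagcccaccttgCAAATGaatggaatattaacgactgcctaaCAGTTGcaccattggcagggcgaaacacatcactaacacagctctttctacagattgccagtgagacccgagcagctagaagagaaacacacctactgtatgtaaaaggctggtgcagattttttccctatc
The Oxt window held 5 half-sites and the other windows 0, and the E-box was matched 3 times for Avp, 2 times for Neurod6 and 1 time for each of the others. A homeobox core (TAATTA) and a cAMP response element (TGACGTCA) were matched 0 times in these windows. Of 32851 RefSeq promoter windows of this length, 66.2% held an E-box, 35.2% a half-site, 4.84% a homeobox core and 1.55% a cAMP response element. The matches describe letters only and were not tested for binding.

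Total counts of the 6 libraries ranged from 15395549 to 17973494, with a median of 15863049, and replicates of a region differed by more than sampling noise (chi-square per degree of freedom 7.95 to 11.2), so all 6 were counted as separate samples. The labels matched the region markers. The summed level of 39 hypothalamic transcription factors was 130 to 155 FPKM (fragments per kilobase of transcript, scaled to library depth) in the hypothalamic libraries against 44.7 to 61.9 in the hippocampal ones, and that of 23 telencephalic factors was 65.4 to 67.4 against 566 to 649 FPKM. Hippocampal library 1 had the highest sums of its region for hypothalamic factors (61.9 against 50.8 and 44.7 FPKM) and thalamic genes (49.9 against 28.9 and 27.5). For magnocellular and releasing peptides (177 against 232 and 214) and feeding peptides (53.9 against 62.7 and 64.7) it had the lowest. Several folds below changed without this library, and the source was not tested. In the Sham mice, replicate 1 of each region went against its label, with hypothalamic factors at 67.0 FPKM in SHAM and 185 in HIP-SHAM, so the Sham contrast rested on replicates 2 and 3 of each region, and HIP-SHAM replicate 3 is titled hippocampus but has hypothalamus in its tissue field.

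Most genes differed between the regions. Of 14561 genes tested, 8823 (60.6%) had an adjusted p under 0.05 in edgeR's quasi-likelihood test, 4502 of them (30.9%) higher and 4321 (29.7%) lower in the hypothalamus. The libraries of the regions did not overlap for 9928 genes (68.2%), in counts scaled by TMM to library size, and 9392 genes (64.5%) had an unadjusted p under 0.05. A change of at least 2-fold was met by 2099 higher genes (14.4%) and 1180 lower ones (8.1%), at least 8-fold by 386 and 156, and at least 32-fold by 114 and 36. The hypothalamus therefore held the larger number of strongly enriched transcripts, while the counts without a limit on size were close to even. That balance depended on scaling. On the deposited FPKM values, limma called 6386 genes higher and 2336 lower, so that 73.2% of the calls were higher against 51.0% in edgeR, and the median over all genes was 0.26 on the log2 scale against 0.02. Levels below are FPKM as deposited, and each log2 fold change (log2FC) is edgeR's estimate, hypothalamus over hippocampus, with its standard error (SE), so small FPKM differences and fitted values can differ in sign. In bulk tissue fewer cells of a type and less RNA per cell cannot be told apart. Counts of list members below are to be read beside the 30.9% of all genes called higher and the 29.7% called lower.

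**Figure D1:**
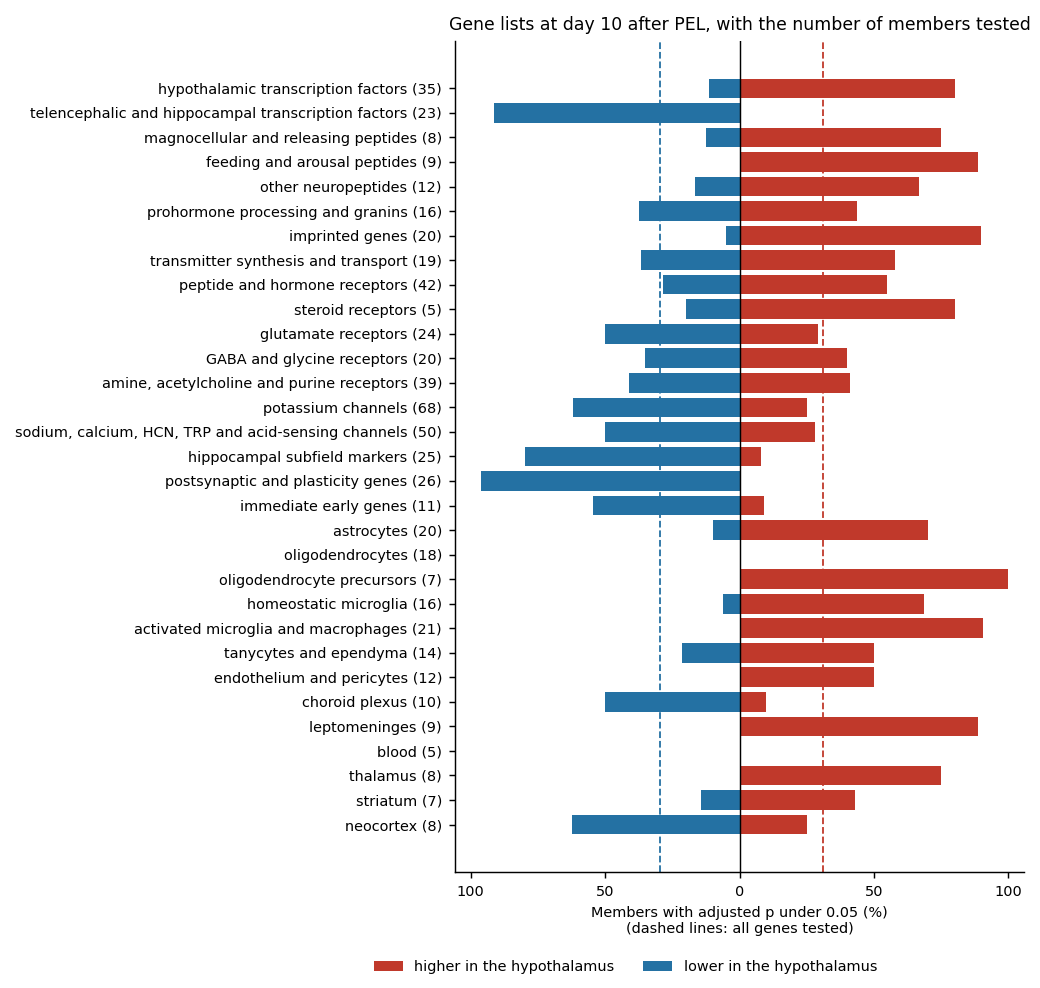
Share of the tested members of each gene list that edgeR called higher (to the right) or lower (to the left) in the lesioned hypothalamus than in the lesioned hippocampus, in percent, for lists with at least 5 tested members. Dashed lines mark the shares over all 14561 genes, 30.9% higher and 29.7% lower; telencephalic factors and plasticity genes lie almost wholly on the lower side, at 91.3% and 96.2%.

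Transcription factors divided by the region in which they are known to act. Of 39 hypothalamic factors listed, 35 passed the filter on low counts, 28 were higher in the hypothalamus, 4 lower and 3 not called. The median log2FC was 4.34, or 3.8 with bounds, where genes at no more than 3 counts in every library of a region were set at their lower bound. Without hippocampal library 1 the median was 5.68, with 32 of 37 higher, limma on FPKM gave 2.95 with 28 higher, and 17 were higher at a mean count of at least 50. The 23 telencephalic and hippocampal factors gave the opposite picture, with 0 higher, 21 lower and a median log2FC of -3.74. Across the deposited family annotation, 46 of 80 tested homeobox genes were higher (57.5%) and 20 lower (25.0%), with 28 of them at a log2FC of at least 3, whereas among bHLH genes, the family of the NeuroD factors, 16 of 67 were higher (23.9%) and 25 lower (37.3%), beside 30.9% and 29.7% of all genes. A gene near 0 in one region passed the filter through the other, so these counts describe the lists and are not support for them.

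Otp and Sim1, which paraventricular and supraoptic neurons need to form, were nearly confined to the hypothalamic libraries among the 6 compared. Otp was at 17.3, 14.5 and 12.7 FPKM in the hypothalamus and at 0.071, 0.042 and 0.024 in the hippocampus. With 1884 against 6 summed counts, its ratio was 275 (95% interval 126 to 751, counting error only), and edgeR gave an adjusted p of 4.69e-08. Sim1 was at 1.21, 2.04 and 2.75 FPKM against 0, 0.008 and 0, a ratio of 519 with a wide interval of 92.9 to 20600, because its hippocampal sum was 1 count. Nkx2-1, which specifies much of the ventral hypothalamus, was at 11.3, 10.9 and 8.1 against 0.784, 0.05 and 0.085 FPKM, and its log2FC of 4.88 (SE 0.52, adjusted p = 4.32e-05) became 6.97 without hippocampal library 1. That library alone held more than a trace of the gene. Nkx2-4, its paralog, was listed at 0 in every hippocampal library and was at least 27.3-fold higher in the hypothalamus. Hmx3, another homeobox gene, was at least 14.9-fold higher by the same bound of 3 counts per library.

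Factors of single nuclei varied among the hypothalamic libraries. Nr5a1, which marks the ventromedial nucleus, was at 7.77, 6.26 and 2.23 FPKM and Nkx2-4 at 4.81, 3.86 and 1.58, lowest in library 3, whereas Foxb1, a mammillary factor, was at 1.44, 3.60 and 4.68, highest there. The hippocampal libraries of Nr5a1 were at 0.021, 0 and 0 FPKM, a ratio of 678 (95% counting interval 121 to 26800), and those of Foxb1 at 0, 0 and 0.021, a ratio of 405 (72.3 to 16000). For both genes the hypothalamic libraries lay far above the hippocampal ones, so the spread changed the size of the difference and not its side. The fitted log2 values of Sim1, Nr5a1 and Foxb1, 8.59, 8.96 and 8.23, rose to 10.53, 10.93 and 10.21 without the 1 hippocampal library that held a count. The listed factors that were lower in the hypothalamus included genes that telencephalic cells also use. Lhx9 had a log2FC of -2.73 (SE 0.26) and Meis2 of -2.11 (SE 0.26), and Lhx6, a factor of cortical interneurons, one of -2.44 (SE 0.42, and -3.26 without hypothalamic library 3).

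Emx1, a homeobox factor of the dorsal telencephalon, was listed at 0 in all 3 hypothalamic libraries and at 3.86, 3.60 and 5.61 FPKM in the hippocampus, at least 42.9-fold lower in the hypothalamus. Neurod6, which marks pyramidal neurons, was at 0.53, 0.977 and 1.06 against 118, 99.1 and 127 FPKM, a log2FC of -7.30 (SE 0.19, adjusted p = 2.25e-08), and Neurod2 at -7.86 (SE 0.16) followed the same order. Prox1, which keeps dentate granule cell identity and is also used in parts of the diencephalon, differed less, at 6.79, 8.52 and 6.33 against 17.4, 19 and 20 FPKM (log2FC -1.64, SE 0.12). Egr3, an activity-dependent zinc finger factor, was lower at a log2FC of -4.84 (SE 0.15).

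**Figure D2:**
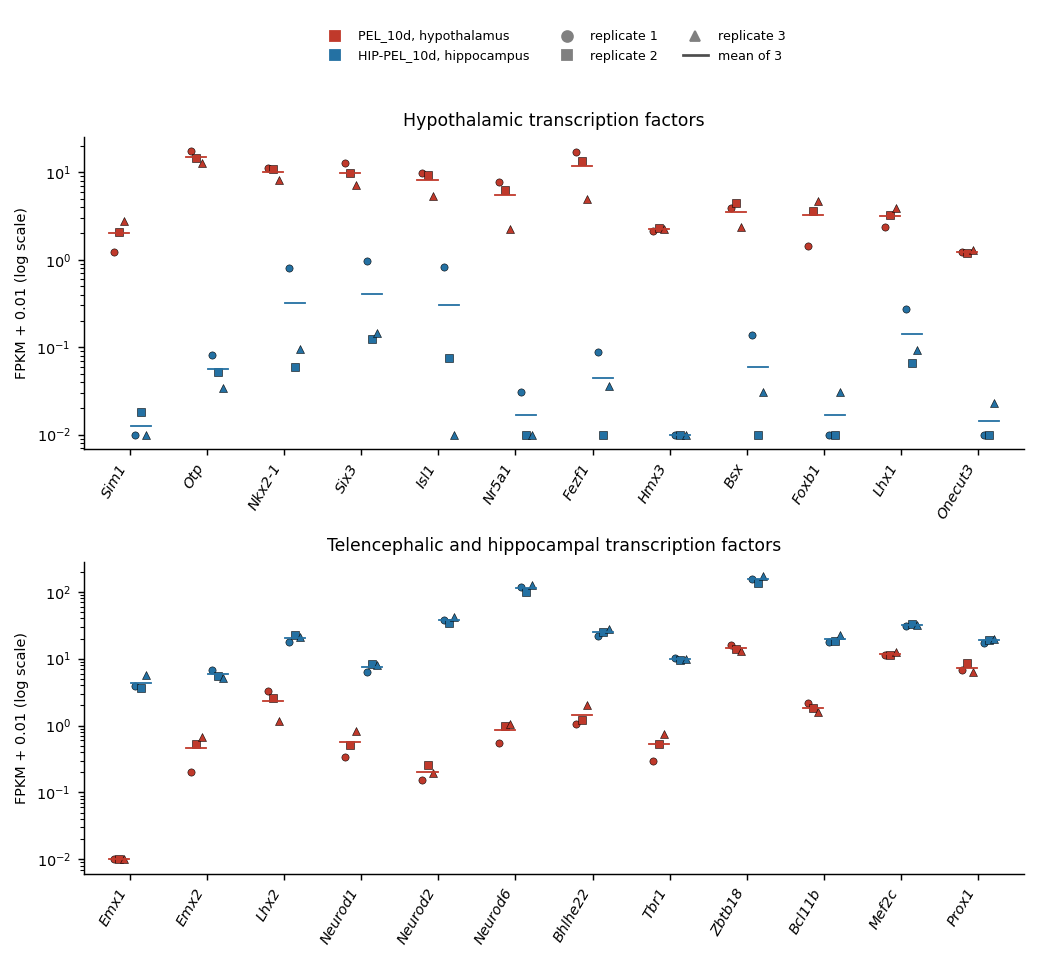
FPKM on a log axis (0.01 added so that 0 can be drawn) of transcription factors in the 3 PEL_10d and 3 HIP-PEL_10d libraries, with a marker per replicate and a line at the mean of 3. Otp and Sim1 lie in the hypothalamic libraries, and Emx1 and Neurod6 in the hippocampal ones, where Neurod6 was at 99.1 to 127.

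Neuropeptide precursors were mostly higher in the hypothalamus. Of the 9 magnocellular and releasing peptides listed, 8 were tested, 6 were higher, 1 lower (Sst) and 1 not called (Crh), with a median log2FC of 5.34, or 3.72 with bounds, and 6.51 without hippocampal library 1. Of 14 feeding and arousal peptides, 9 were tested, 8 were higher and 0 lower, with a median log2FC of 5.41, and of 17 other neuropeptides 12 were tested, with 8 higher, 2 lower and a median log2FC of 1.66.

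Avp, the vasopressin precursor, was at 89.9, 54.2 and 67.9 FPKM in the lesioned hypothalamus and at 0, 0.482 and 0.11 in the hippocampus. The log2FC was 8.07 (SE 0.41, adjusted p = 4.63e-07) and 9.78 without hippocampal library 2, which held 5 of its 6 hippocampal counts. Oxt, the oxytocin precursor, was at 39.6, 32.1 and 33.6 FPKM against 0, 0 and 0.473 (log2FC 7.50, SE 0.45, adjusted p = 1.14e-06), with values of 11.17 without hippocampal library 3, the only one with a count, and 6.88 without library 2. As fitted, Avp was 269-fold and Oxt 181-fold higher in the lesioned hypothalamus than in the hippocampus. In the Sham hypothalamus (replicates 2 and 3) Avp was at 140 and 223 FPKM and Oxt at 89.0 and 222, above every lesioned library, and the regional log2FCs were 9.43 and 9.49. The difference between those folds and the lesioned ones was not tested.

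Trh, the thyrotropin-releasing hormone precursor, was at 63.0, 73.1 and 92.6 FPKM against 0.544, 0.121 and 0.138 (log2FC 7.91, SE 0.30, and 8.88 without hippocampal library 1). Ghrh, the growth hormone-releasing hormone precursor, was at 16.0, 14.4 and 2.19 against 0.243, 0 and 0.252 FPKM, a ratio of 58 (95% counting interval 22.4 to 215). Its hypothalamic spread came from library 3. Tac2, the neurokinin B precursor, was higher at a log2FC of 2.77 (SE 0.30). Crh, the corticotropin-releasing hormone precursor, was at 1.58, 1.95 and 2.17 against 0.713, 1.35 and 1.01 FPKM, with no overlap in FPKM but an adjusted p of 0.0971 (log2FC 0.64, SE 0.30), whereas limma on FPKM gave 0.86 and called it. Sst, made by hippocampal interneurons as well as by periventricular neurons, was at 175, 140 and 73.6 against 174, 226 and 209 FPKM, a log2FC of -0.89 (SE 0.25, adjusted p = 0.0131), a call that limma on FPKM did not make.

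Pmch, the precursor of melanin-concentrating hormone, reached 554, 739 and 647 FPKM in the hypothalamus against 1.17, 1.19 and 1.27, a log2FC of 8.81 (SE 0.17, adjusted p = 7.3e-09), with a narrow spread in both regions. Hcrt, the orexin precursor, was at 72.3, 196 and 141 against 0, 0.38 and 0.217 FPKM (log2FC 9.05, SE 0.63, and 9.90 without hippocampal library 2). Both are made by lateral hypothalamic neurons, and neither was lowest in hypothalamic library 3. Npvf, an RFamide peptide precursor, was at 6.94, 18.5 and 11.2 against 0, 0.069 and 0 FPKM, a ratio of 420 (75.0 to 16600), and Qrfp gave a ratio of 54.0 (18.2 to 264). Pomc, the melanocortin precursor of arcuate neurons, was at 80.2, 56.5 and 10.4 against 0.502, 1.2 and 1.15 FPKM (log2FC 5.41, SE 0.80, adjusted p = 0.000327), and Agrp, made by neighbouring arcuate neurons, at 6.94, 3.31 and 0.177 against low values that left it under the filter. Hypothalamic library 3 was thus the lowest for Pomc, Ghrh, Agrp, Nr5a1 and Nkx2-4, genes of the arcuate and ventromedial nuclei, a description whose source was not tested.

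Among the other peptides, Cbln1, a cerebellin that organizes synapses, had the largest rise at a log2FC of 4.86 (SE 0.17), followed by Adcyap1, the PACAP precursor, at 4.16 (SE 0.21), Nxph4 at 3.85 (SE 0.32), Tac1, the substance P precursor, at 3.05 (SE 0.14) and Pdyn, the dynorphin precursor, at 2.29 (SE 0.24). Cck, the cholecystokinin precursor, ran the other way, at 11.9, 12.1 and 14.0 FPKM in the hypothalamus against 316, 346 and 387 in the hippocampus (log2FC -5.06, SE 0.12, adjusted p = 1.75e-08). Grp, the gastrin-releasing peptide precursor, was also lower, at 2.35, 2.45 and 3.51 against 15.3, 28.1 and 14.0 FPKM (log2FC -3.07, SE 0.31). In Sham mice the Grp difference was -0.66, with 2.46 and 3.48 FPKM against 2.70 and 5.25.

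**Figure D3:**
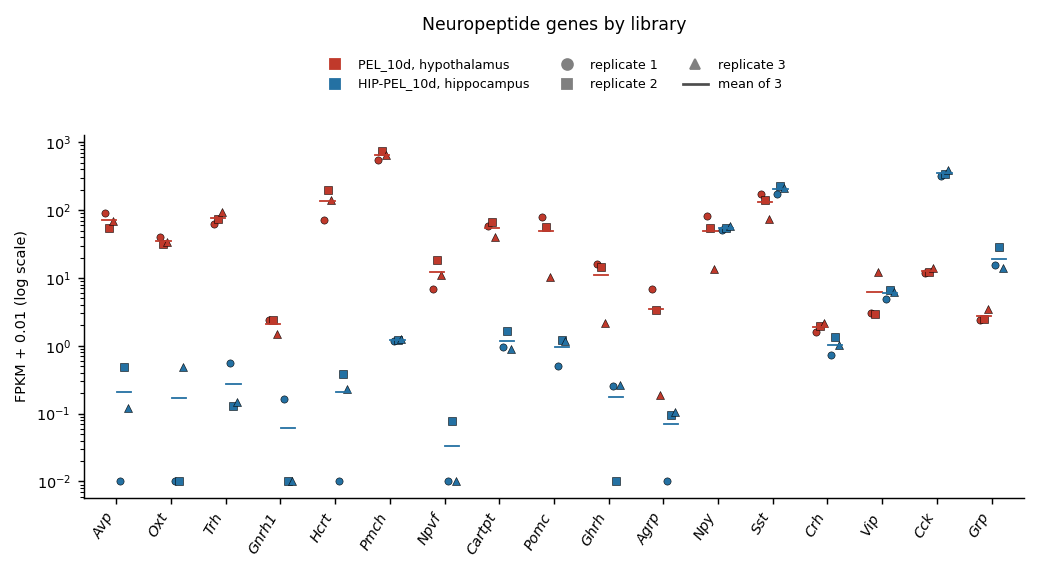
FPKM on a log axis (0.01 added) of neuropeptide precursors in the 3 PEL_10d and 3 HIP-PEL_10d libraries, with a marker per replicate and a line at the mean of 3. Pmch, Avp, Hcrt and Trh lie far apart between the regions, Crh and Sst lie close together, and Cck is higher in all 3 hippocampal libraries.

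The machinery that makes and stores peptides was split. Of 16 prohormone processing and granin genes, 7 were higher (43.8%), 6 lower (37.5%) and 3 not called, with a median log2FC of 0.10. Scg2, a granin, was at 465, 521 and 485 FPKM against 100, 118 and 118 (log2FC 1.88, SE 0.09), and Pcsk1, Chga and Pam, the last of which amidates peptide ends, were higher at 1.10, 1.04 and 1.03. Peg3, an imprinted zinc finger gene that is no processing enzyme but stood in the list, was higher at 2.29, and without it 6 were higher and 6 lower. Chgb was lower at -1.26 (SE 0.10), and Pcsk2, Cpe, Cadps2 and Ptprn2 were lower by under 1 on the log2 scale, at -0.54, -0.53, -0.64 and -0.41. The calls of Cadps2 and Ptprn2 were not made by limma on FPKM.

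Imprinted genes, several of which act in hypothalamic control of growth and feeding, were mostly higher in the hypothalamus. Of the 20 found in the table and tested, 18 were higher and 1 lower, with a median log2FC of 1.90. Calcr, the calcitonin receptor and a member of the receptor list as well, was at 10.6, 10.6 and 11.7 against 0.154, 0.016 and 0 FPKM (log2FC 7.66, SE 0.36, and 9.83 without hippocampal library 1). Asb4 followed at a log2FC of 6.01 (SE 0.35), Magel2 at 4 (SE 0.25), Peg10 at 3.84 (SE 0.33) and Igf2, a growth factor gene of the meninges, at 3.83 (SE 0.30). Snrpn was the 1 lower member, at a log2FC of -0.57 (SE 0.05).

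Transmitter genes showed an exchange of vesicular glutamate transporters. Slc17a6, used by most diencephalic glutamate neurons, was at 64.4, 72.4 and 72.6 FPKM in the hypothalamus and at 3.00, 1.59 and 1.44 in the hippocampus (log2FC 4.88, SE 0.21, adjusted p = 1.93e-07). Slc17a7, used by pyramidal cells, was at 0.847, 0.597 and 0.78 against 409, 438 and 453 FPKM (log2FC -9.43, SE 0.12, adjusted p = 7.47e-10). The sum of the whole list of 22 genes was 515 to 550 FPKM in the hypothalamus and 814 to 845 in the hippocampus. Of 19 tested, 11 were higher and 7 lower, with a median log2FC of 1.02.

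GABA markers did not move as one. Gad2 was at 68.3, 84.9 and 89.4 against 37.7, 33.5 and 30.1 FPKM (log2FC 1.02, SE 0.11) and Slc32a1, the vesicular GABA transporter, at 31.4, 34.8 and 31.9 against 22.4, 16.2 and 16.5 (log2FC 0.59, SE 0.12). Gad1 was at 107, 120 and 112 against 122, 119 and 108 FPKM, overlapping in FPKM, and its log2FC of -0.31 (SE 0.07, adjusted p = 0.00333) was not called by limma on FPKM, at -0.04. Genes of dopamine and histamine synthesis and transport were among those higher, with Th, the first enzyme of dopamine synthesis, at a log2FC of 5.56 (SE 0.23), Slc6a3, the dopamine transporter, at 5.29 (SE 0.50, and 5.92 without hippocampal library 2), Hdc, which makes histamine, at 4.32 (SE 0.23) and Ddc at 2.68 (SE 0.18). Besides Slc17a7, the lower genes included Slc30a3, which loads zinc into glutamatergic vesicles, at a log2FC of -5.34 (SE 0.21), and Nos1 at -0.73. Tph2 was low in both regions, at 0.124 to 0.362 FPKM against 0.424 to 0.502, and its call at -1.28 (SE 0.41, adjusted p = 0.0223) was not made by DESeq2, with an adjusted p of 0.0523, nor without hypothalamic library 2 or 3 or hippocampal library 1 or 3, at log2FCs of -1.29 to -1.02.

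Receptors for peptides and hormones leaned to the hypothalamus. Of 42 tested, 23 were higher (54.8%), 12 lower (28.6%, close to the 29.7% of all genes) and 7 not called, with a median log2FC of 0.76. After Calcr, Cckar, a cholecystokinin receptor, had a ratio of 99.0 (95% counting interval 33.6 to 482) and Brs3, an orphan bombesin-like receptor, one of 67.7 (26.2 to 250). Galr1, a galanin receptor, was higher at a log2FC of 4.09 (SE 0.51, and 5.37 without hippocampal library 1) and Oprk1, the kappa opioid receptor, at 3.77 (SE 0.19). The largest falls were those of Vipr1 at a log2FC of -3.48 (SE 0.22), the somatostatin receptors Sstr4 at -2.54 (SE 0.19) and Sstr3 at -2.45 (SE 0.16), Npy2r at -1.37 and Mchr1, the receptor of the peptide made from Pmch, at -1.25 (SE 0.14).

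The receptors of the magnocellular peptides pointed in opposite directions. Oxtr, the oxytocin receptor, was at 2.55, 2.22 and 1.5 FPKM in the hypothalamus and at 3.15, 3.59 and 3.18 in the hippocampus, so that every hippocampal library was higher (log2FC -0.87, SE 0.19, adjusted p = 0.00309). Avpr1a, a vasopressin receptor, was at 1.42, 2.04 and 2.41 against 0.494, 0.167 and 0.143 FPKM (log2FC 2.63, SE 0.42, adjusted p = 0.000562), and at 3.36 without hippocampal library 1. Among 5 steroid receptors tested, Esr1, the estrogen receptor of ventromedial and arcuate neurons, was higher at 2.34 (SE 0.19), Pgr, the progesterone receptor, and Nr3c1, the glucocorticoid receptor, were higher by 0.37 and 0.30, and Nr3c2, the mineralocorticoid receptor of hippocampal neurons, was at 5.94, 6.87 and 6.44 against 46.8, 44.6 and 51.8 FPKM (log2FC -3.11, SE 0.09, adjusted p = 3.28e-08).

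Glutamate receptors leaned to the hippocampus, with 7 of 24 higher, 12 lower and a median log2FC of -0.62. The NMDA receptor subunits Grin2a and Grin2b were lower, at a log2FC of -3.81 (SE 0.10) and -2.56 (SE 0.08), with Grin2a at 2.58, 3.07 and 2.82 against 35.0, 29.5 and 35.7 FPKM, and the AMPA receptor subunits Gria3 and Gria1 at -1.62 and -1.49. Grin2d, a subunit of diencephalic and brainstem neurons, was higher at a log2FC of 1.08 (SE 0.12), with Grm8 at 1.44, Grik3 at 1.07 and Grm4 at 1. The regions thus differed in which subunit genes were high.

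GABA and glycine receptors were divided evenly, with 8 of 20 tested higher (40.0%), 7 lower (35.0%) and a median log2FC of -0.11 that was 0.17 by limma on FPKM. Gabrq was at 33.2, 34.5 and 28.4 against 0.452, 0.338 and 0.064 FPKM (log2FC 6.56, SE 0.25, adjusted p = 1.07e-07), and Gabre at 13.7, 12.8 and 7.03 against 0.233, 0.065 and 0.074 (log2FC 6.26, SE 0.41, and 7.04 without hippocampal library 1). Both encode GABA receptor subunits known from hypothalamus and brainstem. Glra1, a glycine receptor subunit, had a ratio of 101 (43.2 to 314) and Glra3 and Gabrg1 were higher at a log2FC of 3.45 and 1.89. Gabrd, the subunit of extrasynaptic receptors in granule cells, was at 0.363, 0.531 and 0.169 against 8.56, 9.12 and 10.0 FPKM (log2FC -4.92, SE 0.26), and Gabra5, a pyramidal cell subunit, at -2.12 (SE 0.11).

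Receptors for amines, acetylcholine and purines were also balanced, with 16 of 39 tested higher (41.0%) and 16 lower (41.0%), and a median log2FC of -0.02 that was 0.35 by limma on FPKM. Adra1d, an adrenoceptor, was at 0.133, 0.063 and 0.376 against 21.0, 26.4 and 24.8 FPKM (log2FC -7.22, SE 0.28, and -8.15 without hypothalamic library 3), the largest fall in this list. Chrm1, the muscarinic receptor of pyramidal cells, was at a log2FC of -4.16 (SE 0.19), Chrna5 at -4.14, Htr3a, a serotonin receptor of interneurons, at -3.34 and Htr5b at -2.76. Chrna6, a nicotinic subunit, had a ratio of 47.9 (16.1 to 235), and Htr1d at a log2FC of 2.33 (SE 0.61, and 3.52 without hippocampal library 1), Hrh1, a histamine receptor, at 2.05, Chrna3 at 1.94 and Adra1b at 1.78 were higher.

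Potassium channels set the regions apart mainly in 1 direction. Of 68 tested channel and auxiliary subunit genes, 17 were higher, 42 lower and 9 not called in the hypothalamus, with a median log2FC of -0.92. Kcnh3, a voltage-gated channel of the forebrain, was at 0.805, 0.568 and 0.334 FPKM against 13.1, 16.2 and 17.4 (log2FC -5.01, SE 0.23, adjusted p = 2.26e-07), and Kcng1, Kcnj4, Kcnip2 and Kcnv1 followed at -3.58, -3.53, -3.12 and -3.04. Kcnj5, a subunit of G protein-gated channels, was at 6, 5.31 and 3.02 against 0.287, 0.095 and 0.056 FPKM (log2FC 4.80, SE 0.40, and 5.43 without hippocampal library 1), and Kcna5 at 3.60, Kcna3 at 1.56, Kcnk3, a leak channel, at 1.32 and Kcnip1 at 1.31 were higher as well. The direction of the list was kept by limma on FPKM, with 19 higher, 38 lower and a median log2FC of -0.64, and in the Sham mice, where 20 were higher and 36 lower with a median log2FC of -0.62.

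**Figure D4:**
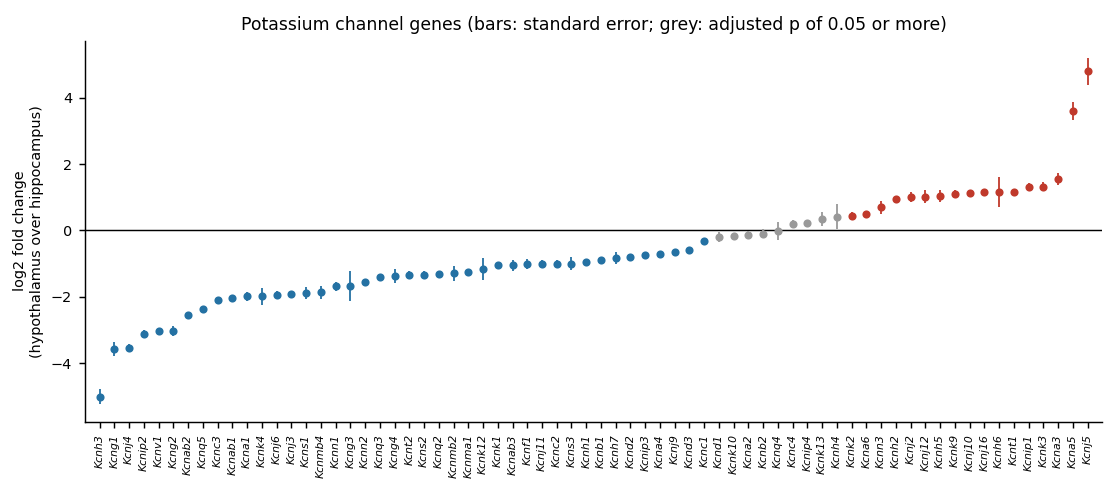
log2FC (hypothalamus over hippocampus, edgeR) with its standard error for each of the 68 tested potassium channel genes, in order of size. The values run from -5.01 for Kcnh3 to 4.80 for Kcnj5, with 42 genes called lower and 17 called higher.

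Among 50 tested sodium, calcium, HCN, TRP and acid-sensing channel genes, 14 were higher and 25 lower, with a median log2FC of -0.32, which limma on FPKM moved to 0.02 with 16 higher and 18 lower. Scn9a, a sodium channel of neuroendocrine and sensory neurons, was at 6.87, 6.67 and 5.97 against 0.295, 0.334 and 0.272 FPKM (log2FC 4.18, SE 0.11, adjusted p = 2.65e-08), with little spread in either region. Hcn4, a pacemaker channel, was higher at a log2FC of 2.95 (SE 0.20), Scn7a at 2.35 and Cacna2d2 at 1.88. Trpc6, a channel of dentate granule cells, was lower at a log2FC of -2.78 (SE 0.14), with Cacng8 at -2.46, Trpc4 at -2.15 and Scn8a at -1.87.

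Subfield markers and genes of the postsynaptic density were mostly lower in the hypothalamus. Of 25 subfield markers, 20 were lower in the hypothalamus and 2 higher, with a median log2FC of -2.59. Lct was at 0.021, 0.019 and 0.032 against 9.88, 4.47 and 10.5 FPKM, with 2489 hippocampal against 7 hypothalamic counts, a ratio of 406 (197 to 1010). Spink8 and Fibcd1, markers of CA1 pyramidal cells, were at a log2FC of -6.69 (SE 0.31, and -7.51 without hypothalamic library 3) and -5.05 (SE 0.11), Iyd had a hippocampal ratio of 30.4 (15.8 to 67.4) and Pou3f1 was at -3.74. The 2 higher genes were Amigo2, at 37.9, 34.4 and 24.0 against 10.1, 10.8 and 8.72 FPKM (log2FC 1.45, SE 0.16), and Map3k15 at 1.41 (SE 0.45, adjusted p = 0.0218; 2.21 without hippocampal library 1), a call lost without hypothalamic library 1 or 3 and without hippocampal library 2.

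Of 26 postsynaptic and plasticity genes, 25 were lower and 0 higher, with a median log2FC of -2.23 and a sum of 1077 to 1200 FPKM in the hypothalamus against 5402 to 6498 in the hippocampus. Hpca, a calcium sensor, was at 61.3, 70.4 and 98.6 against 1180, 931 and 1220 FPKM (log2FC -4.16, SE 0.16), Itpka at -5.71 (SE 0.22), Nrgn, the calmodulin-binding neurogranin, at -3.93 (SE 0.21) and Icam5 at -3.8. The hypothalamic and hippocampal libraries did not overlap for 25 of the 26 genes, beside 68.2% of all genes. Outside the lists, Slc9a4, Mas1, a receptor of the angiotensin family, and Rtn4rl2 were among the 10 largest falls, at a log2FC of -7.29 (SE 0.25), -7.24 (SE 0.22) and -7.08 (SE 0.23). Of 11 immediate early genes, 6 were lower, with Arc at 4.15, 4.91 and 5.68 against 30.0, 22.3 and 53.7 FPKM (log2FC -3.09, SE 0.31), followed by Nr4a1 at -1.99, Fosb at -1.45, Egr1 at -1.36 and Junb at -1.32. Fos alone was higher, at 9.10, 8.79 and 19.3 against 3.07, 4.54 and 7.17 FPKM (log2FC 1.08, SE 0.37, adjusted p = 0.0283), and this call was lost in DESeq2 (adjusted p = 0.0666). Without hypothalamic library 3 its log2FC was 0.60, without hippocampal library 1 it was 0.81 and without library 2 it was 1.01, and it was called in none of these 3 fits.

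Astrocyte markers were mostly higher in the lesioned hypothalamus, with 14 of 20 higher, 2 lower and a median log2FC of 0.66. Agt, the angiotensinogen gene that diencephalic astrocytes express strongly, was at 133, 131 and 121 FPKM against 11.0, 11.9 and 6.21 (log2FC 3.48, SE 0.19, adjusted p = 5.91e-07). Slc6a11, a glial GABA transporter, was at 212, 233 and 219 against 41.8, 43.4 and 38.4 FPKM (log2FC 2.18, SE 0.07), with Vim at 1.93 and the connexin gene Gjb6 at 1.65. Gfap, the filament gene that rises in reactive astrocytes, was at 418, 355 and 454 FPKM against 208, 137 and 144 (log2FC 1.09, SE 0.15, adjusted p = 0.000237), and the water channel gene Aqp4 at 112, 105 and 108 against 45.1, 35.1 and 38.8 (log2FC 1.19, SE 0.08). Agt, Slc6a11 and Gjb6 differed by similar amounts in Sham mice, with log2FC values of 3.56, 2.63 and 1.5, whereas that of Gfap was -0.30 there, with 95.4 and 128 FPKM against 110 and 128, and that of Aqp4 was -0.03. Slc1a2, a glutamate transporter, was lower at a log2FC of -0.90 (SE 0.08) and Hapln1 at -2.93 (SE 0.15).

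Oligodendrocyte genes gave no call. Of 18 tested, 0 passed the adjusted threshold in edgeR's test, 1 had an unadjusted p under 0.05, DESeq2 called 1 and limma on FPKM 4, and the median was 0.12. Mbp, the myelin basic protein gene, was at 1970, 1870 and 1970 FPKM in the hypothalamus and at 2400, 1410 and 1180 in the hippocampus (log2FC -0.03, SE 0.21, adjusted p = 0.909). The hippocampal libraries straddled the hypothalamic ones, and the summed list ran from 2325 FPKM in hippocampal library 3 to 4728 in library 1. Without library 1, 13 of the 18 genes were called higher in the hypothalamus, with a median log2FC of 0.38 and Mbp at a log2FC of 0.30. In Sham mice 16 genes were lower and 0 higher, with a median log2FC of -0.59. All 7 precursor markers were higher, with Lhfpl3 at a log2FC of 1.58, Cacng4 at 1.29, Gpr17 at 0.74, C1ql1 at 0.70 and Pdgfra, at 20.6, 18 and 20.2 against 11.2, 11.0 and 9.70 FPKM, at a log2FC of 0.65 (SE 0.07). That count was 4 without hypothalamic library 3 and 5 without hippocampal library 3. The call of C1ql1 was lost without hypothalamic library 3 (log2FC 0.49, adjusted p = 0.054) and without hippocampal library 2 (0.57, adjusted p = 0.0553).

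Genes of activated microglia and macrophages gave the highest median of the glial lists. Of 21 tested, 19 were higher and 0 lower in the lesioned hypothalamus, with a median log2FC of 4.32 (4.21 with bounds), and the summed list was 2254, 926 and 2280 FPKM against 291, 232 and 247. Lgals3, which encodes galectin-3 of activated phagocytes, was at 79.3, 14.4 and 54.8 against 2.31, 0.571 and 1.66 FPKM (log2FC 4.98, SE 0.68, adjusted p = 0.000199). Gpnmb, a gene of lipid-laden macrophages, was at 132, 29.4 and 168 against 1.89, 1.41 and 1.35 (log2FC 5.98, SE 0.64), and Lyz2, a lysozyme gene, at 545, 135 and 699 against 11.3, 4.65 and 4.24 (log2FC 5.86, SE 0.65). In each of these genes hypothalamic library 2 was the lowest of its region and still above every hippocampal library. Mmp12, the macrophage metalloelastase, was at 83.2, 7 and 41.8 FPKM against 0.043, 0.038 and 0.054, or 3048 against 3 counts, a ratio of 890 (304 to 4320), and its fitted log2 value of 9.65 was 8.81 without hypothalamic library 1. Atp6v0d2, a subunit of the lysosomal proton pump, had a ratio of 169 (72.3 to 522) and Msr1, a scavenger receptor, one of 55.2 (18.6 to 270; the fitted 5.64 was 6.43 without hippocampal library 2).

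Homeostatic microglia genes differed less. Of 16 tested, 11 were higher and 1 lower, with a median log2FC of 0.63 and a sum of 680 to 829 FPKM against 291 to 361. The complement gene C1qa was at 146, 112 and 117 against 41.1, 32.5 and 33.6 FPKM (log2FC 1.57, SE 0.12, adjusted p = 4.51e-06), C1qb at 1.56 and C1qc at 1.62, the lipid receptor gene Trem2 at 1.92 (SE 0.23) and Aif1 at 1.18 (SE 0.25). P2ry12, the purine receptor of resting microglia, was the 1 lower gene, at 15, 14.7 and 19.6 against 24.1, 21.6 and 29.4 FPKM (log2FC -0.74, SE 0.10, adjusted p = 0.000253), with no overlap. In Sham mice P2ry12 differed by a like amount, with a log2FC of -0.70, but C1qa, C1qb, C1qc and Aif1 were not called, at -0.15, -0.21, -0.14 and -0.30, and 0 homeostatic genes were called higher and 7 lower (median log2FC -0.21). Of 14 activated genes tested in Sham mice 5 were higher and 5 lower, with Lgals3 at 1.16 and 1.45 FPKM against 2.02 and 2.52 (log2FC -1.22) and Gpnmb at a log2FC of -1.35. A test of the difference between the lesioned and the Sham contrast was not part of the comparisons.

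**Figure D5:**
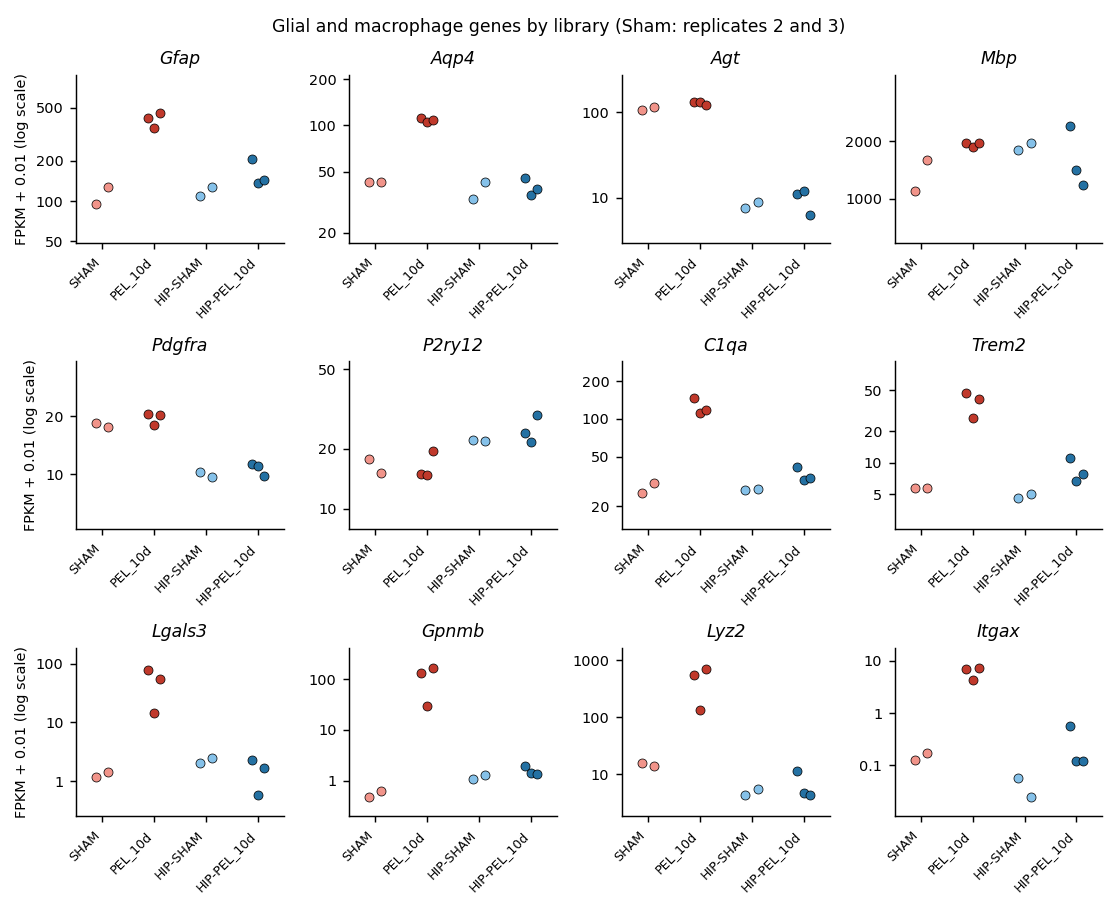
FPKM on a log axis (0.01 added) of 12 glial and macrophage genes in the Sham hypothalamus (replicates 2 and 3), lesioned hypothalamus, Sham hippocampus (replicates 2 and 3) and lesioned hippocampus, with a marker per replicate. Agt is high in both hypothalamic groups, while Lgals3, Gpnmb and Lyz2 stand out in the lesioned hypothalamus, where Lgals3 was at 14.4 to 79.3.

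The dissections could also hold other tissues. Of 9 leptomeningeal genes, 8 were higher in the hypothalamus, with a median log2FC of 3.83 and a sum of 261 to 538 against 37.3 to 80.1 FPKM, and the collagen genes Col3a1, Col1a2 and Col1a1 were at a log2FC of 5.40 (SE 0.40), 4.39 (SE 0.30) and 4.28 (SE 0.42), with Aldh1a2 at 4.08. Vascular genes were higher in 6 of 12 and lower in 0, a share called that is below the 60.6% of all genes, with a median log2FC of 0.20, led by Vtn at a log2FC of 1.64, Pdgfrb, a pericyte receptor, at 1 and Itm2a at 0.91, and Pecam1 and Tek at 0.35 and 0.30. The last pair lost their calls without hypothalamic library 3 (log2FCs 0.28 and 0.21) or hippocampal library 2 (0.28 and 0.27), and Tek also in DESeq2 and without hippocampal library 3 (0.28). Igf2, counted among both the imprinted and the meningeal genes, was at 213, 102 and 128 against 9.32, 6.99 and 10.7 FPKM at day 10 but at 62.7 and 76.0 against 53.2 and 65.3 in Sham mice (log2FC 0.04). Of the 9 leptomeningeal genes, 7 were also higher in the Sham hypothalamus, with a median log2FC of 2.09, and Igf2 and Lum, at 0.34, were not called there. The part of meningeal tissue in the collagen or Igf2 values was not tested.

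Choroid plexus genes differed between hippocampal libraries. Ttr, its transthyretin gene, was at 3.26, 4.81 and 10.8 FPKM in the hypothalamus and at 116, 28.5 and 767 in the hippocampus (log2FC -5.85, SE 1.18, adjusted p = 0.00214), with -3.76 without hippocampal library 3 and -6.50 without hypothalamic library 3. Of 10 tested choroid genes, 5 were lower, Folr1 at a log2FC of -2.32, Sostdc1 at -1.65, Otx2 at -1.54 and Kl at -1.01 among them, and 9 of 12 were lower without hippocampal library 2. On FPKM limma did not call Sostdc1, Otx2 or Kl, at -1.23, -1.09 and -0.68 on the log2 scale. Prlr, the prolactin receptor, which hypothalamic neurons also express, was higher at a log2FC of 2.57 (SE 0.22). In Sham mice, where the choroid sum was 5281 and 6592 FPKM in the hippocampus against 105 and 114 in the hypothalamus, Prlr was at a log2FC of -0.84. Tanycyte and ependymal genes were mixed, with 7 of 14 higher and 3 lower, and 11 of 15 higher without hippocampal library 1. Gpr50, a tanycyte receptor, was at 16.1, 13.7 and 4.25 against 0.613, 0.018 and 0.021 FPKM (log2FC 5.49, SE 0.78, and 8.76 without hippocampal library 1 and 4.89 without library 2), Col23a1 was at 2.25 and Foxj1, a factor of ciliated cells, at 0.90 (SE 0.24). Crym, Lhx2 and Dio2, which pyramidal cells or other astrocytes also express, were lower at a log2FC of -5.20, -3.30 and -1.61.

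Pituitary transcripts were low, apart from Cga, the common subunit of glycoprotein hormones, at 31.4, 8.30 and 3.78 FPKM in the hypothalamus and 0 in every hippocampal library, at least 46.0-fold higher. Its fitted log2 value, which depends on the prior count, was 10.21, and 8.95 without hypothalamic library 1. Prl was at 0.071 to 0.513 against 0 to 0.063 FPKM and Gh at 0.22 to 1.88 against 0 to 0.581, with at most 7 and 27 counts in a library, and both fell under the filter. Of 5 blood genes, whose paralogs share reads, 0 were called by edgeR, DESeq2 or limma and 0 had an unadjusted p under 0.05 in edgeR, with sums of 26.3 to 126 against 49.4 to 144 FPKM. This rested on 1 library, since all 5 were called lower without hypothalamic library 3 (median log2FC -1.95 against -1 with it) and 1 was without hippocampal library 1. H2-Q2, an MHC gene with near-identical neighbours and so an uncertain count, was at 22.3, 15.9 and 7.54 against 0.099, 0 and 0 FPKM, a ratio of 390 (108 to 3220; the fitted 8.37 was 11.13 without hippocampal library 1). Markers of neighbouring regions are given beside the 30.9% of all genes called higher and the 29.7% called lower. Of 8 thalamic genes 6 were higher, with Rgs16 at a log2FC of 2.32 and Tcf7l2 at 1.64, and of 7 tested striatal genes 3 were higher, with Gpr6 at 2.08, Rgs9 at 1.60 and Drd2 at 1.56, and Ppp1r1b was lower at a log2FC of -1.16. Without hippocampal library 1, 6 of 8 striatal genes were higher, and limma on FPKM and the fit without a filter each called 5 higher. Of 8 neocortical genes 5 were lower, with Fezf2 at -4.64 and Tbr1 at -4.47, and Rorb was higher at 1.16, all as log2FCs. Several of these are also used by cells of the hypothalamus or hippocampus, and the share of neighbouring tissue was not tested.

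The regional difference without the lesion was measured in 4 Sham libraries that the day 10 contrast did not use. Of 14479 genes tested there, 7978 (55.1%) were called, 3939 higher (27.2%) and 4039 lower (27.9%), with 8667 (59.9%) at an unadjusted p under 0.05. Changes of at least 2-fold were called for 1492 genes higher (10.3%) and 1267 lower (8.75%), and the libraries did not overlap for 11282 genes (77.9%). Of the genes called higher at day 10 and tested in both, 86.9% had the same sign in Sham mice, and of those called lower 94.4%. Of genes called with a change of at least 2-fold, 92.1% had the same sign and 79.1% were also called. The lists of region identity ran in the same directions in Sham mice, with medians that were higher there for the hypothalamic lists. The median log2FC in Sham mice was 5.96 for hypothalamic factors (32 of 36 higher) against 4.34 at day 10, 8.19 for magnocellular and releasing peptides (6 of 8 higher) against 5.34, and 6.76 for feeding and arousal peptides (10 of 11 higher) against 5.41. It was -3.36 for telencephalic factors (21 of 22 lower) against -3.74, and -2.06 for plasticity genes against -2.23. The hypothalamic medians lean on genes near 0 hippocampal counts, whose fitted folds turn on single counts. Sim1 was at 8.59 at day 10 and 10.96 in Sham mice, with hypothalamic levels of 1.21 to 2.75 against 2.67 and 2.84 FPKM. With bounds the 3 day 10 medians were 3.8, 3.72 and 5.31, and no Sham median was taken with bounds. The members tested at day 10 were 35, 8 and 9. Slc17a7 and Pmch were at -9.38 and 9.03 in Sham mice. Lists with other counts in Sham mice than at day 10 included those of microglia, macrophages and oligodendrocytes, and choroid plexus genes, with 12 of 12 lower and a median log2FC of -4.90 in Sham mice. Vascular genes had 3 higher and 2 lower there, against 6 and 0, and prohormone processing genes 11 higher and 4 lower, against 7 and 6. None of these differences between the contrasts was tested. Because surgery, lesion and day are joined in the labels, these cannot be told apart in the values of the 2 contrasts.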

How the data were processed

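Bulk mRNA libraries of mouse brain tissue were compared. According to the study's methods the authors aligned reads with Hisat2 and counted them with featureCounts, and the submitters' notes name GRCm38 (mm10). The table deposited by the authors lists 22274 genes, 22219 of them matched to a symbol, with estimated counts and FPKM values per library. How FPKM was computed and which strand setting was used is not given in the sources used here. Of the deposited counts 8.22% are not whole, so they were rounded. The deposited table also holds pathway and transcription factor family annotation, and the families were used.

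Genes passing edgeR's filterByExpr (minimum count 10) were scaled by TMM and tested by the quasi-likelihood method of edgeR 4.0.16 (R 4.3.3), each fit holding only the groups compared, with Benjamini-Hochberg adjustment over all genes tested and a threshold of 0.05. TMM factors were 1.08 to 1.10 in hypothalamic and 0.908 to 0.928 in hippocampal libraries. Where a region held 0 counts, a floor of 3 counts per library gave a lower bound, and where it held at least 1 count but no library held over 3, a ratio of summed counts with an exact 95% interval was given. List medians with bounds used the floor for both kinds of gene. Intervals and bounds cover counting error only. In simulated data of 14550 genes for this comparison, 52.1% of changes of 1.5-fold, 93.9% of 2-fold and 100% of 4-fold and 8-fold were recovered. The simulation gave every gene the same dispersion and a mean pooled over both regions. Its rates therefore do not describe genes that vary more between libraries or are absent from a region.

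The sample labels set the members, and this choice of members and the gene lists were made with earlier results of these data known. Lists were written from general knowledge and described by counts and medians, without a test of the list. Named genes were up to 10 rises and 10 falls over all genes (mean of at least 100 counts in the higher region), up to 5 of each per list (at least 20 counts), called and without overlap, plus 26 genes fixed by name. Agrp was named as a list member that fell under the filter and was not tested. Some genes of the rule are not reported here. Alternatives were DESeq2 1.42.0 and its size factors, other count filters, the replicate number as a block, a fit over all 8 groups, an added fold limit, limma 3.58.1 on log2(FPKM + 0.1) and leaving out each library. Tables and plots used Python 3.11.15, pandas 2.3.3, numpy 2.4.6 and matplotlib 3.10.9.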

Additional observations from a re-analysis of the deposited data

Results flagged for a closer look

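Some named genes had fold changes of opposite sign at day 10 after PEL and in Sham mice, without overlap of libraries in either contrast in counts scaled by TMM. With 2 Sham libraries per region this is a weak criterion, met in Sham mice by 77.9% of all genes. In edgeR's test C1qa, C1qb, C1qc, Aif1, Tek and Nos1 were not called in Sham mice, with adjusted p-values of 0.253, 0.09, 0.276, 0.404, 0.322 and 0.113, so that no reversed direction was shown for them. In deposited FPKM the Sham libraries overlapped for C1qa, C1qb, C1qc, Aif1, Gfap and Tek, and the day 10 libraries for Gad1. The difference between the contrasts was not tested for any of them. In log2 fold change of hypothalamus over hippocampus, day 10 first and Sham second, the genes with a positive value at day 10 and a negative one in Sham mice included, from the microglia, macrophage and astrocyte lists, Gpnmb (5.98 and -1.35), Lgals3 (4.98 and -1.22), C1qa (1.57 and -0.15), C1qb (1.56 and -0.21), C1qc (1.62 and -0.14), Aif1 (1.18 and -0.30) and Gfap (1.09 and -0.30). Prlr (2.57 and -0.84), Foxj1 (0.90 and -0.57) and Tek (0.30 and -0.14), from the choroid plexus, ependymal and vascular lists had the same pair of signs. Cadps2 (-0.64 and 0.44), Gad1 (-0.31 and 0.24) and Nos1 (-0.73 and 0.12), which neurons express, had the opposite pair. Over all genes, 3765 of the 4332 called higher at day 10 and tested in both contrasts had the same sign in Sham mice, and the others were not sorted by cell type.

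A pair of Sham libraries that the comparisons left out held signal of the other region. The library labelled HIP-SHAM replicate 1 had a summed level of hypothalamic transcription factors of 185 FPKM, and the library labelled SHAM replicate 1 had a summed level of telencephalic and hippocampal transcription factors of 494 FPKM.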

How the results depend on the processing

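At day 10 the count of 8823 called genes was 8831 with DESeq2's size factors, 8315 in DESeq2, 9099 without a filter, 7857 at a mean count of at least 50, 8185 in a fit over all 8 groups and 8722 by limma on FPKM, where 2336 were lower. Requiring a log2 fold change of at least 1 in size as well left 3279, with 2099 higher and 1180 lower. Leaving out 1 library gave 7919 to 8815. In Sham mice the count of 7978 was 6828 to 7152 without 1 library, 2187 lower by limma, and 2759 with the limit of 1, with 1492 higher and 1267 lower. It was 0 (0 higher and 0 lower) in edgeR with all 6 Sham libraries as labelled, where 336 genes had an unadjusted p under 0.05, and 0 (0 and 0) in the fit over all 8 groups, where 2783 did. Both of these include the 2 libraries that go against their region label.

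The correlations of the deviations of same-numbered libraries were 0.06, 0.08 and -0.04, and libraries 1 and 2 but not 3 correlated best with their own number. Such values, taken between different tissues, cannot show whether same-numbered libraries came from the same mice. With the replicate number as a block 8611 genes were called at day 10 (4403 higher and 4208 lower) and 8445 in Sham mice.

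Of 2817 values of 218 named genes under these alternatives, 2770 kept their direction and side of the threshold, 41 lost a call, 1 gained one with its sign kept (Crh by limma, 0.86) and 5 changed sign. The last were all Mbp, from -0.03 to 0.00 at a mean count of at least 50, 0.03 with the block, 0.01 over all 8 groups, 0.29 by limma and -0.23 to 0.30 over the fits without 1 library, the highest without HIP-PEL_10d replicate 1, where Mbp was also called (adjusted p = 0.0143 in edgeR). In the fit over all 8 groups, calls lost included those of Folr1, Gad1, Kl, Otx2, Pecam1, Pgr, Ppp1r1b, Slc32a1, Sostdc1, Tek and Tph2. Of the counts of called genes per list, 841 stayed within 1.5 times and 55 did not. With 3 libraries per region, genes under the filter, such as Prl and Gh, were not tested in the main fit, and the fit without a filter held 17938 genes.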
